A study of Homo sapiens with 8 samples.

Results

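The genes described here encode the metalloproteinases MMP1, MMP2, MMP3, MMP10 and MMP14, the related proteases ADAMTS1 and ADAMTS5, and the inhibitors TIMP1, TIMP2 and TIMP3. A probe set was taken as a member if the array annotation gave it exactly 1 symbol and that symbol was 1 of these 10. This found 10 of 8746 probe sets on the 12 h arrays, 1 for each gene, and 16 of 22215 on the 6 h arrays, 4 of them for MMP14 and 4 for TIMP3. All 10 probe sets of the 12 h arrays were also on the 6 h arrays, and no member symbol stood on a probe set with several symbols. The cells were MRC5, a line of human diploid lung fibroblasts, grown in medium with fetal bovine serum in every group. They received 10 µM 8-oxoguanine, the free oxidised base, for 6 h (1 array) or 12 h (3 arrays), or the solvent alone as mock for 6 h (1 array) or 12 h (3 arrays). The labels call the 12 h arrays technical replicates by extract, and do not say whether each extract had its own culture. The p-values therefore measure only the spread between extracts, which may be technical. The treatment protocol names 6 h for all samples, whereas the time label and description give 12 h for these 6, and the time label was followed. Each treated group is set against the mock of its own time, to see which transcripts differ after exposure.

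Matrix metalloproteinases are zinc-dependent proteases that cleave collagens and other matrix proteins, and most are secreted as inactive proenzymes. The ADAMTS enzymes are secreted relatives that cut proteoglycans such as aggrecan and versican. TIMPs bind the active sites of MMPs and block them, and fibroblasts are a source of many of these proteins in connective tissue. Transcription of MMP1, MMP3 and MMP10, which lie side by side on chromosome 11 in the order MMP10, MMP1, MMP3, is known to respond to cytokines and growth factors through AP-1 and ETS factors. ADAMTS1 and ADAMTS5 are also neighbours, on chromosome 21.

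The values are array signals on a linear scale, which the authors had scaled to a common level on each array. Array medians were 157 to 165 at 12 h and 143 to 155 at 6 h, and signals of different genes were not compared with each other because probe sets differ in brightness. All 11 fibroblast markers on the 12 h array were above the filter limit, a signal of 93.9, on all 6 arrays. Of these, 2 rose, LUM by 1.07 and PDGFRB by 0.30 on the log2 scale (limma adjusted p = 0.00340 and 0.0446). Without the filter PDGFRB did not pass (limma adjusted p = 0.0689). The other 9 did not pass, among them FBN1 at -0.30 (SE 0.09, limma adjusted p = 0.0505). The median of the 11 was -0.03, and 6.59% of all probe sets tested were called higher. Of the markers of other cells, 5 of 6 endothelial, 4 of 8 epithelial and 3 of 5 leukocyte and macrophage probe sets were below the filter limit on all 6. The summed signal of the epithelial list was 4306 to 4628 on the treated arrays and 4150 to 4408 on the mock arrays, most of it from KRT18. Of the 4 epithelial markers tested, the keratin KRT19 fell (log2 fold change -1.27, SE 0.17, limma adjusted p = 0.00145), while KRT8 (0.49), SFTPC (0.22) and KRT18 (0.12) did not pass, and the median of the 4 was 0.17. The actin control probes of the 3' end gave a signal over that of the 5' probes of 0.999 to 1.07 on the treated arrays and 0.889 to 0.995 on the mock arrays at 12 h. The same ratio for GAPDH overlapped, at 0.802 to 0.843 on the treated arrays and 0.779 to 0.826 on the mock arrays. The part of these markers and ratios in the results below was not tested.

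At 12 h the collagenase MMP1 and the stromelysin MMP3 fell, the proteoglycan-cleaving ADAMTS1 and ADAMTS5 rose, and the 3 TIMPs did not pass the test. The gelatinase MMP2 and the membrane protease MMP14 did not pass either, and the stromelysin MMP10 was too dim to be tested. Of 9 members that passed the filter on dim signals, 4 were called by limma at an adjusted p below 0.05, of which 2 had risen and 2 had fallen. Over all 5248 probe sets tested, 13.2% were called, 6.59% higher and 6.65% lower. In the fit without the filter, over all 10 members, the same number of 4 was called, against 6.35% of all 8746 probe sets. The treated and mock arrays did not overlap at 5 of the 9 members tested, against 33.9% of all probe sets tested. In bulk RNA, fewer cells of a type and less RNA per cell cannot be told apart. The median log2 fold change of the 9 was -0.02, and that of all probe sets tested was 0.01.

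**Figure D1:**
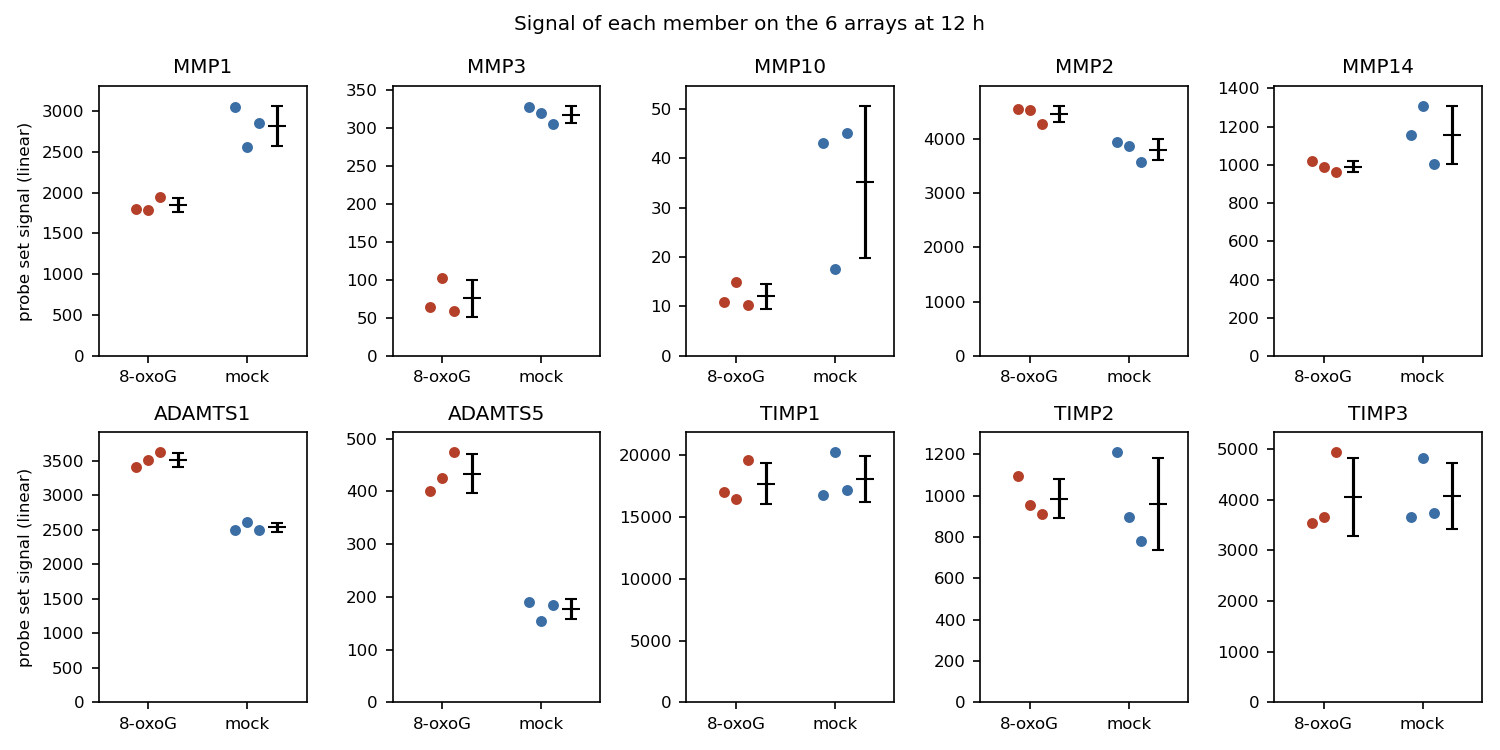
Signal (linear, arbitrary units) of the probe set of each of the 10 genes on the 12 h arrays, 3 treated with 8-oxoguanine (left in each panel) and 3 mock (right), with the mean and SD in black; each panel has its own axis from 0. The treated arrays lie below the mock arrays for MMP1, MMP3 and MMP10, above them for MMP2, ADAMTS1 and ADAMTS5, and overlap them for MMP14 and the 3 TIMPs.

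MMP3 (gene ID 4314, probe set 205828_at) encodes stromelysin-1, a protease of broad specificity that also activates other proMMPs. Its signal was 64.5, 103 and 59.3 on the treated arrays, against 328, 319 and 305 on the mock arrays. The groups lay far apart, and treated extract 2 was the highest of its group. The means were 75.6 ± 23.9 in treated cells and 317 ± 11.5 in mock cells (SD, n = 3 each). The log2 fold change was -2.11 (SE 0.22, 95% interval -2.61 to -1.62, limma adjusted p = 0.000427), a signal 4.33 times as high in mock as in treated cells. Of the 3 treated signals, 2 were below the filter limit, so MMP3 was tested only because of its mock signals and the size of its fall is uncertain. With signals below the limit set to it, an alternative chosen after seeing the data, the log2 fold change was -1.71 (limma adjusted p = 6.86e-05). It was not tested under the stricter filter.

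MMP1 (gene ID 4312, probe set 204475_at) encodes interstitial collagenase, which cuts the triple helix of fibrillar collagens. Its signal was 1804, 1789 and 1944 on the treated arrays, against 3045, 2561 and 2849.7 on the mock arrays. Every treated array was below every mock array. The means were 1846 ± 85.4 in treated cells and 2818 ± 244 in mock cells (SD, n = 3 each), with a log2 fold change of -0.61 (SE 0.08, 95% interval -0.79 to -0.43, limma adjusted p = 0.00145). This interval does not reach that of MMP3, although the difference between the 2 falls was not tested. By size MMP1 was 118th among all 349 falls that passed.

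MMP10 (gene ID 4319, probe set 205680_at) encodes stromelysin-2, the closest relative of MMP3 in the family. Its signal was 10.8, 14.9 and 10.4 on the treated arrays, against 43.0, 17.5 and 45.1 on the mock arrays. All 6 signals were below the filter limit, and mock extract 2 lay near the treated ones. Without the filter its log2 fold change was -1.45 (SE 0.50, limma adjusted p = 0.143), which did not pass. Promoter sequence from RefSeq (GRCh38.p14, 250 bases before to 50 after the gene's start) was at hand for 4 of the 10 members, namely MMP10, MMP14, TIMP1 and TIMP3. The promoter of MMP10, next to MMP1 on chromosome 11, and that of TIMP1, which did not pass the test, are shown to set an inducible protease beside an inhibitor. The windows are chr11:102780579-102780878 on the minus strand for MMP10 and chrX:47582186-47582485 on the plus strand for TIMP1, each written 5' to 3' in the direction of the gene. Capitals mark matches to any of 4 motifs, searched on both strands, and no 2 matches overlap.
MMP10: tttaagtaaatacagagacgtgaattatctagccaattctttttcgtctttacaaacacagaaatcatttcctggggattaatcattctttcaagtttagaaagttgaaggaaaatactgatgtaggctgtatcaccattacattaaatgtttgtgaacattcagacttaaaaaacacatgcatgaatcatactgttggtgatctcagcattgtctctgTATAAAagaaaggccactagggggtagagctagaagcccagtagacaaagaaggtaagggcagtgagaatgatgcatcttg
TIMP1: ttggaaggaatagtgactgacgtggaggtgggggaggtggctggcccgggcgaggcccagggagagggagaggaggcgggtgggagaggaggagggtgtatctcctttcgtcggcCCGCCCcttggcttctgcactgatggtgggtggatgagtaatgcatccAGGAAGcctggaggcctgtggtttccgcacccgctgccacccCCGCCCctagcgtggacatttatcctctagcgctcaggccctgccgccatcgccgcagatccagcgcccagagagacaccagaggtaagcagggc
The motifs were TGAGTCA for AP-1, AGGAAG for ETS factors of the PEA3 type, TATAAA for the TATA box and GGGCGG for the GC box. The MMP10 window held TATAAA at -31 to -26, where -1 is the base before the gene's start, and none of the other 3. The TIMP1 window held AGGAAG at -87 to -82 and the GC box on the minus strand at -135 to -130 and at -45 to -40, with no match to TATAAA. The GC box was also in the windows of MMP14 (1 match) and TIMP3 (5 matches), and TGAGTCA was in none of the 4. Only exact matches were searched. Words that differ by 1 letter, such as tgagtaa in the TIMP1 window and tgaatca in the MMP10 window, were not marked. Over 35116 RefSeq promoter windows of the same length, 4.95% held TGAGTCA, 33.6% AGGAAG, 11.5% TATAAA and 45% GGGCGG. A match is a description of these letters and says nothing of binding in MRC5 cells.

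MMP2 (gene ID 4313, probe set 201069_at) encodes gelatinase A, which most fibroblasts make without induction. Its signal was 4547, 4541 and 4284 on the treated arrays, against 3952, 3868 and 3578 on the mock arrays. The groups did not overlap, with means of 4457 ± 150.3 in treated cells and 3799 ± 197 in mock cells (SD, n = 3 each). The log2 fold change was 0.23 (SE 0.07, 95% interval 0.08 to 0.38) and just missed the threshold (limma adjusted p = 0.0527). It passed after quantile normalization (log2 fold change 0.24, limma adjusted p = 0.0350) and under the stricter filter (limma adjusted p = 0.0389). Over all alternatives its adjusted p ranged from 0.0350 to 0.176.

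MMP14 (gene ID 4323, probe set 160020_at) encodes the membrane protease MT1-MMP, which activates proMMP2 at the cell surface together with TIMP2. Its signal was 1019.65, 988 and 965 on the treated arrays, against 1156, 1308 and 1007 on the mock arrays. The mock arrays were spread more widely, and the lowest of them lay below the highest treated array. The log2 fold change was -0.22 (SE 0.10, 95% interval -0.44 to 0.01, limma adjusted p = 0.185), which did not pass.

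ADAMTS5 (gene ID 11096, probe set 219935_at) encodes an aggrecanase that is best known from cartilage. Its signal was 401, 425 and 474 on the treated arrays, against 190.4, 155 and 184 on the mock arrays. The lowest treated signal was above the highest mock signal by a wide margin. The means were 433 ± 36.9 in treated cells and 177 ± 18.9 in mock cells (SD, n = 3 each), a 2.46-fold higher signal in treated cells. The log2 fold change was 1.30 (SE 0.13, 95% interval 1.00 to 1.59, limma adjusted p = 0.000360), the 8th largest of 346 rises. Of all probe sets tested, 0.991% were called with a change of 2-fold or more either way. Of the 9 members these were ADAMTS5 and MMP3, and MMP3 was tested only because of its mock signals.

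ADAMTS1 (gene ID 9510, probe set 222162_s_at) encodes a protease that cuts versican and aggrecan. Its signal was 3417, 3506 and 3621 on the treated arrays, against 2503, 2616 and 2499.9 on the mock arrays. The groups did not overlap and each was tight. The means were 3515 ± 102 in treated cells and 2539 ± 66.0 in mock cells (SD, n = 3 each). The log2 fold change was 0.47 (SE 0.06, 95% interval 0.33 to 0.61, limma adjusted p = 0.00160), smaller than that of its neighbour ADAMTS5, and 200th by size among the 346 rises.

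The 3 inhibitors, TIMP1 (gene ID 7076, probe set 201666_at), TIMP2 (gene ID 7077, probe set 203167_at) and TIMP3 (gene ID 7078, probe set 201149_s_at), overlapped between the groups. TIMP1, a secreted inhibitor of most MMPs, had signals of 16997, 16423.5 and 19567 on the treated arrays, against 16775, 20185 and 17155.5 on the mock arrays. TIMP2, which inhibits MMP2 and also takes part in its activation, had 1093, 952 and 910.1 on the treated arrays, against 1208, 895 and 780.2 on the mock arrays. TIMP3, which stays bound to the matrix and also inhibits ADAMTS enzymes, had 3541, 3660.2 and 4931 on the treated arrays, against 3664, 4818 and 3738 on the mock arrays. In TIMP1 and TIMP3 the same arrays, treated extract 3 and mock extract 2, were the highest of their groups. The log2 fold changes were -0.03 (95% interval -0.25 to 0.19) for TIMP1, 0.06 (-0.28 to 0.39) for TIMP2 and -0.02 (-0.33 to 0.30) for TIMP3. None of the 3 passed in limma (adjusted p = 0.886, 0.855 and 0.961), and none had an unadjusted p below 0.05. Each of these signs turned when single arrays were left out, with ranges of -0.11 to 0.054 for TIMP1, -0.082 to 0.23 for TIMP2 and -0.17 to 0.11 for TIMP3. The intervals leave room for modest changes in either direction.

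**Figure D2:**
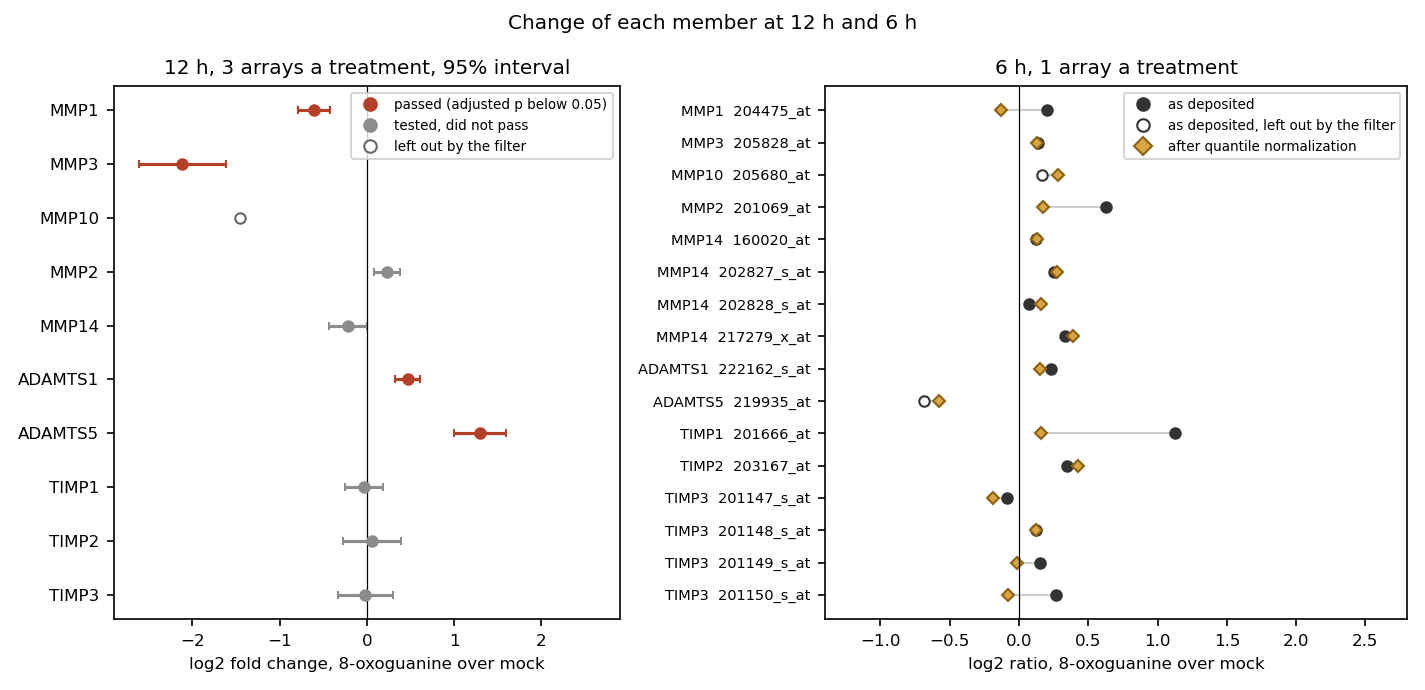
Left, log2 fold change (8-oxoguanine over mock) at 12 h with 95% intervals from limma (3 arrays a treatment), coloured by whether the test was passed; MMP10 has no interval because the filter left it out. Right, log2 ratio of the single treated and mock arrays at 6 h for all 16 probe sets, as deposited and after quantile normalization. Of the members tested, MMP3 (-2.11) and ADAMTS5 (1.30) stand farthest from 0 at 12 h, and TIMP1 (1.13, 0.16 after quantile normalization) moves most between the scalings at 6 h.

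Of 15 other MMPs on the 12 h array, 8 were left out by the filter and none of the 7 tested passed in limma, with 1 at an unadjusted p below 0.05. That was MMP16, a membrane MMP, with signals averaging 95.02 in treated cells and 138 in mock cells (log2 fold change -0.53, SE 0.20, limma adjusted p = 0.107), named here after its value was seen. Of its 3 treated signals, 2 were below the filter limit. The median of the 7 was -0.14, and 1 of them passed when the fit had no intensity trend. Around MMP1 and MMP3 on chromosome 11, the matrilysin MMP7 had a log2 fold change of -0.44 (SE 0.24) and the neutrophil collagenase MMP8 of -0.24 (SE 0.29). Each had 1 treated signal below the filter limit. Neither passed in limma (adjusted p = 0.267 and 0.642), and MMP12, MMP13, MMP20 and MMP27 of the same neighbourhood were below the filter limit on all 6 arrays.

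Of 12 tested genes among other ADAMTS enzymes, ADAMs and inhibitors, ADAM19 fell and 11 did not pass (median log2 fold change -0.04). With quantile normalization, the stricter filter or the replicate block, and without 8-oxoguanine extract 1 or mock extract 2, 2 genes of this list were called instead of 1. ADAM19, a membrane-anchored sheddase, had means of 369 ± 21.0 in treated cells and 604 ± 22.7 in mock cells (SD, n = 3 each), and the log2 fold change was -0.71 (SE 0.09, limma adjusted p = 0.00144). RECK, a membrane-anchored inhibitor of MMPs, had 629 in treated and 838 in mock cells and a log2 fold change of -0.42 (SE 0.12), just short of the threshold (limma adjusted p = 0.0517), and was named after its value was seen. The other ADAMTS genes tested, ADAMTS2, ADAMTS6, ADAMTS9, ADAMTS12 and ADAMTS13, had log2 fold changes of 0.07, 0.01, 0.05, -0.15 and -0.36, and none of them passed; they too were named after their values were seen.

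Of 12 tested activators and regulators of proMMPs, 2 rose, 3 fell and 7 did not pass, with a median of 0.02. The 3 that fell belong to the plasminogen system, whose product plasmin can activate proMMPs. The serpin SERPINE2 of the same system did not pass (log2 fold change 0.06, limma adjusted p = 0.619) and was named after its value was seen. PLAT, tissue plasminogen activator, averaged 984 ± 30.2 in treated cells and 2311 ± 113 in mock cells (SD, n = 3 each), and the log2 fold change was -1.23 (SE 0.07, limma adjusted p = 1.34e-05). PLAU, urokinase, had a log2 fold change of -0.72 (SE 0.08) and its receptor PLAUR of -0.45 (SE 0.09). CTSK, the collagen-cutting lysosomal protease cathepsin K, rose by 0.63 (SE 0.09) on the log2 scale. The other rise was that of BSG, basigin, which is known to induce MMPs in neighbouring cells (0.35, SE 0.07), named after its value was seen.

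Of 15 tested AP-1 and ETS factors, ATF3 and JUND rose, FOSL1 fell and 12 did not pass, with a median of 0.02. ATF3, a stress-induced factor that can pair with JUN proteins, had means of 513 ± 5.67 in treated cells and 247 ± 18.3 in mock cells (SD, n = 3 each), a log2 fold change of 1.06 (SE 0.11). FOSL1, or FRA1, an AP-1 subunit, had a log2 fold change of -0.57 (SE 0.12), and JUND, a JUN subunit often linked to resting cells, of 0.43 (SE 0.08). Of 13 tested cytokines, growth factors, receptors and related genes that regulate MMPs, 1 rose, 4 fell and 8 did not pass, with a median of 0.01. IL1R1, the signalling receptor of interleukin-1, rose, with means of 640.5 ± 22.8 in treated cells and 294 ± 25.8 in mock cells (SD, n = 3 each) and a log2 change of 1.12 (SE 0.10, limma adjusted p = 0.000204). PTGS2, the inducible cyclooxygenase, had a log2 fold change of -1.04 (SE 0.18), the cytokine LIF of -0.58 (SE 0.07) and TGFB1 of -0.50 (SE 0.07). The fourth fall was that of the receptor TGFBR2 (-0.35, SE 0.07), named after its value was seen.

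Of 19 tested matrix proteins that these proteases can cut, 2 rose and 17 did not pass, with a median of -0.09, and 4 passed after quantile normalization. The 2 that rose were the small proteoglycans LUM, or lumican, at 1.07 (SE 0.17) and BGN, or biglycan, at 0.37 (SE 0.07) on the log2 scale. All lists above and the members were chosen with earlier results of these data known, so their counts describe these genes only. The shares called among all probe sets, 6.59% higher and 6.65% lower, apply to each of them.

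**Figure D3:**
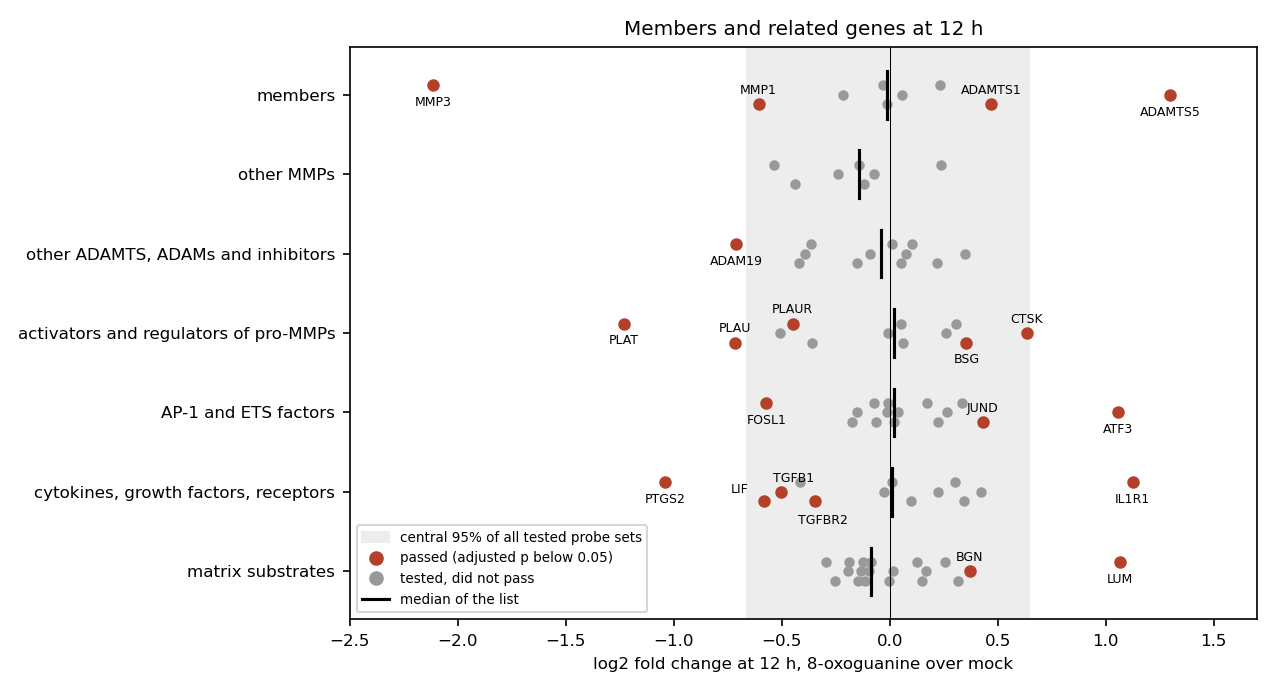
Log2 fold change at 12 h (8-oxoguanine over mock, 3 arrays each) of the members and of 6 related gene lists, 1 point per gene that passed the filter on dim signals, with called genes named in red and the median of each list as a black bar; the grey band holds the central 95% of all 5248 probe sets tested. Medians lie between -0.14 and 0.02, while MMP3, ADAM19, PLAT, PLAU and PTGS2 lie left of the band, and ADAMTS5, ATF3, IL1R1 and LUM right of it.

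The probe sets whose pattern over the 6 arrays was most like that of 3 of the members were found by the Euclidean distance between log2 values centred on each probe set's mean. Nearest to MMP3 were EDN1, which encodes endothelin-1 (distance 0.44), ID1 (0.52) and ID3 (0.88), inhibitors of helix-loop-helix factors. Nearest to MMP1 were NDRG1, a hypoxia-responsive gene (0.10), the small GTPase RIT1 (0.14) and the mitotic cyclin CCNB2 (0.14). Nearest to ADAMTS5 were COL15A1, a basement membrane collagen (0.24), ASNS, asparagine synthetase (0.27), and NNMT, nicotinamide N-methyltransferase (0.31). COL15A1 averaged 2132 in treated cells and 942 in mock cells, and NNMT 1605 in treated cells and 703 in mock cells. The distances compare patterns over the same 6 arrays and carry no test. They include the difference between treated and mock arrays, so genes with a similar fold change lie near each other. The log2 fold changes were -1.77 for EDN1, -2.09 for ID1 and -2.23 for ID3. They were -0.59 for NDRG1, -0.58 for RIT1 and -0.64 for CCNB2, and 1.18 for COL15A1, 1.35 for ASNS and 1.19 for NNMT.

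At 6 h there was 1 array per treatment, so the ratios have no replicate check and no test was made. MMP3 had 2672 on the treated and 2428 on the mock array, and MMP1 had 6315 on the treated and 5487 on the mock array. Their log2 ratios were 0.14 and 0.20, and that of MMP1 turned to -0.13 after quantile normalization. MMP10, stromelysin-2, had 151 on the treated and 134 on the mock array (log2 ratio 0.17). ADAMTS5 was the member with the lowest ratio, -0.69, with a dim 92.1 on the treated and 148 on the mock array. Both MMP10 and ADAMTS5 were left out by the 6 h filter, at a mean signal of 148. ADAMTS1 had 3564 on the treated and 3043 on the mock array (log2 ratio 0.23).

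TIMP1 had 20321 on the treated and 9315 on the mock array at 6 h, a log2 ratio of 1.13, and was the only member past 2-fold. Among 11108 probe sets kept at 6 h, a rise of 2-fold or more was found for 0.378%, and a difference of that size in either direction for 1.34%. MMP2 had 8749 on the treated and 5677 on the mock array (log2 ratio 0.62). Both belonged to the 537 probe sets with a geometric mean signal of 5000 or more over the 2 arrays, a limit chosen after seeing the data, whose median log2 ratio was 0.54. After quantile normalization the ratio of TIMP1 was 0.16, that of MMP2 was 0.17 and the median of the 537 was 0.01. TIMP2 had 1104.5 on the treated and 871 on the mock array, and its log2 ratio was 0.34 as deposited and 0.42 after quantile normalization.

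The 4 probe sets of MMP14 had log2 ratios of 0.07 to 0.33 and the 4 of TIMP3 of -0.09 to 0.26 at 6 h. Probe sets of a gene therefore differed by as much as most members differed from 0. Of the 14 probe sets kept by the filter, 4 of them for MMP14 and 4 for TIMP3, 13 had a ratio above 0 as deposited and 10 after quantile normalization. Of all probe sets kept, 45.6% lay above 0 as deposited and 52.9% after quantile normalization. Centring each array on its median moved every ratio up by 0.12. The median over the 8 genes kept, with the brightest probe set of each, was 0.25 as deposited, 0.36 with median centring and 0.14 after quantile normalization, against -0.03, 0.08 and 0.02 over all probe sets kept.

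The times were measured on arrays of different types that were scaled separately, so levels are set side by side with no comparison. MMP3 averaged 75.6 in treated cells and 317 in mock cells at 12 h, while at 6 h it had 2672 on the treated and 2428 on the mock array. TIMP3, by the same probe set, averaged 4044 in treated cells and 4073 in mock cells at 12 h, while at 6 h it had 4569 on the treated and 4124 on the mock array. The other members are given for mock cells, each by its 12 h probe set, as the 12 h mean and the 6 h signal. These were 18039 and 9315 for TIMP1, 961 and 871 for TIMP2, 2818 and 5487 for MMP1 and 3799 and 5677 for MMP2. They were 35.2 and 134 for MMP10, 1157 and 2043 for MMP14, 2539 and 3043 for ADAMTS1 and 177 and 148 for ADAMTS5. Exposure time changed along with array type and array number, and their parts cannot be told apart.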

How the data were processed

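Total RNA of MRC5 cells was labelled with biotin and read on single-colour arrays of a pair of types, 1 for each time. The files deposited by the authors give a linear intensity for every probe set, which MAS5 produced per the submitters' processing notes. The settings of MAS5 were not found there. Trimmed of the extreme 2% at either end, array means without control probe sets were 490.3 to 494.6. No detection calls were used.

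Log2 of the deposited intensity was taken with no further scaling. At 12 h, probe sets with a mean log2 value below the 40th percentile were left out (3498 of 8746), and at 6 h below the 50th percentile. Treated and mock arrays of 12 h were tested two-sided in limma 3.58.1 (R 4.3.3; lmFit, then eBayes with its trend on mean intensity), and p-values were adjusted by Benjamini-Hochberg over all 5248 probe sets and called below 0.05. Every adjusted p is from such a fit, over all 8746 probe sets where no filter was used. For a list, the brightest probe set of each gene was used. Named were all members, up to 4 called genes a list with the largest changes, and the 3 nearest patterns of MMP1, MMP3 and ADAMTS5. Symbols come from the platform annotation, and the RefSeq gene table (GRCh38.p14) changed none of the 26 member entries. Tried as alternatives were quantile normalization, median centring, a stricter filter or none (60th percentile for 12 h, 70th for 6 h), a constant before log2, no intensity trend, a replicate block, averaging the probe sets of each gene, each 12 h array left out, and, added later, dim signals set to the filter limit. The number of arrays limits the precision. The members and lists were chosen with earlier results of these data known.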

Additional observations from a re-analysis of the deposited data

Results flagged for a closer look

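Treated and mock arrays did not overlap at 12 h for 6 members, and for 4 of them the change had the opposite sign of the ratio at 6 h. The other members among these 6, MMP2 (0.23 at 12 h and 0.62 at 6 h) and ADAMTS1 (0.47 and 0.23), had the same sign at both times. Without MMP10, which the filter left out, these were 5 of the 9 members tested. Of all probe sets tested at 12 h, 33.9% did not overlap, and how many of those changed sign was not counted. MMP3 had a log2 fold change of -2.11 at 12 h and a log2 ratio of 0.14 at 6 h, which stayed at 0.13 after quantile normalization. MMP1 had -0.61 at 12 h and 0.20 at 6 h, and the 6 h ratio was -0.13 after quantile normalization, so the opposite sign rests on the scaling. MMP10 had -1.45 at 12 h and 0.17 at 6 h (0.28 after quantile normalization), but the filter left it out at both times. ADAMTS5 had 1.30 at 12 h and -0.69 at 6 h, the 6 h signals being dim (92.1 with 8-oxoguanine and 148 with mock). With 1 array per treatment at 6 h and arrays of another type, how far 12 h differs from 6 h was not tested.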

How the results depend on the processing

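MMP1, ADAMTS1 and ADAMTS5 kept their direction and their call under all 14 alternatives, and MMP3 under the 13 in which it was tested. The log2 fold changes ranged from -0.68 to -0.55 for MMP1, -2.36 to -1.71 for MMP3, 0.45 to 0.49 for ADAMTS1 and 1.17 to 1.35 for ADAMTS5. The number of members called was 4, except after quantile normalization, where MMP2 made it 5; under the stricter filter MMP2 took the place of MMP3. Leaving out single arrays gave log2 fold changes of -0.11 to 0.054 for TIMP1, -0.082 to 0.23 for TIMP2 and -0.17 to 0.11 for TIMP3, so none of the 3 has a settled direction. The calls over all probe sets, 695, were 371 to 649 without single arrays, with 371 without 8-oxoguanine replicate 1, 386 without 8-oxoguanine replicate 2 and 451 without mock replicate 3. The cause was not tested. The extract numbers showed no pairing of the samples (same-number correlations of deviations 0.08, -0.15 and -0.05), and not every array correlated best with its own number. With 3 extracts a group, these values cannot show that the samples were unpaired. With the extract number as a replicate block, 513 probe sets and the same number of 4 members were called. Calls among the related lists were 16 to 20 against 16 in all. By list, matrix substrates had 4 against 2 after quantile normalization, other MMPs 1 against 0 with no intensity trend, and other ADAMTS, ADAMs and inhibitors 2 against 1 under 5 alternatives. The 6 h median of the members was 0.14 to 0.36 under the alternatives. Signals below 93.9 limit what can be said of MMP10, MMP16, MMP7 and MMP8 and of the size of the fall of MMP3.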
